A study of Mus musculus with 10 samples.

Results

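The guanylate-binding proteins (Gbp) of mouse Hepa1-6 hepatoma cells were compared between cells left untreated and cells kept with cytotoxic T cells. All entries of the deposited gene table whose symbol was Gbp2, Gbp2b, Gbp3, Gbp4, Gbp5, Gbp6, Gbp7, Gbp9 or Gbp10 were taken. These 9 names gave 10 entries of the 34745 genes in the table, because the symbol Gbp6 stands on 2 Ensembl identifiers. Of the 10 entries, 9 had enough counts to be tested and Gbp2b had none.

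Guanylate-binding proteins are large GTPases of the dynamin superfamily whose transcription is induced by interferons, most strongly by interferon gamma. They assemble on the membranes of vacuoles that hold parasites or bacteria, and on bacteria in the cytosol, and open them to other defences. In macrophages they also link such microbes to caspases and inflammasomes. In mice the genes lie in a cluster on chromosome 3 and another on chromosome 5, and mice lacking the chromosome 3 cluster control Toxoplasma gondii poorly.

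RNA sequencing was done on 10 libraries of wild-type Hepa1-6 cells, an established mouse hepatoma line, grown in DMEM with 10% fetal bovine serum. In 5 libraries the cells were untreated. In the other 5 they had been kept for 48 h with CD8+ T cells taken from the spleens of male C57/BL6 mice aged 6 to 8 weeks, which had been activated for 5 days with antibodies to CD3 and CD28 diluted 1 in 2000. Adherent cells were rinsed with PBS before RNA was taken, so RNA of T cells still attached would be included. The labels do not say whether the libraries of a group came from separate cultures, so a p-value here weighs a difference against the spread among these libraries alone, which may be technical.

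Library totals ran from 12922263 to 17100662 counts. Levels are given as CPM (counts scaled to a common library total with TMM, edgeR's correction for composition) for one gene across libraries, and as FPKM (the same counts over gene length and library total) where genes are compared with each other. The 12 T cell markers summed to 0.150 to 1.48 CPM in untreated and 0.689 to 2.34 CPM in co-cultured libraries, and 6 of them, Cd3e, Cd3d, Cd8a, Cd2, Prf1 and Ifng, were at 0 in all libraries. The 12 macrophage markers summed to 81.3 to 88.7 CPM untreated and 122 to 136 CPM in co-culture. C1qa and C1qb were at 0 in every untreated library and had means of 0.188 and 0.259 CPM in co-culture. Most of the untreated sum came from Cd14, Cd68 and Mertk, with means of 32.3, 25.1 and 23.0 CPM, and Cd68 had the same mean in co-culture. Means of Lyz2 went from 0.930 to 18.2 CPM and those of Adgre1 from 0.162 to 3.66 CPM. The 8 endothelial and fibroblast markers summed to 34.4 to 45.1 CPM untreated and 29.6 to 34.4 CPM in co-culture. Of the 10 hepatocyte and hepatoma markers, Krt8 and Krt18 were abundant, at 1115 ± 90.4 and 497 ± 33.7 CPM (SD, n = 5) untreated and at 937 ± 63.0 and 481 ± 42.4 CPM in co-culture, whereas Alb, Apob, Hnf4a and Serpina1a had 0 counts in untreated libraries. Of the 4 tested, Krt8 (log2 fold change -0.25, adjusted p = 0.0079) and Afp (-0.36, adjusted p = 0.0040) were called lower in co-culture.

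Promoter sequence near the transcription start was on hand for the 5 chromosome 3 members, from RefSeq on GRCm38.p6, in windows running from 250 bases before the start to 50 from it. The stretch around the letters shared by interferon-stimulated response elements, which interferon signalling acts on, is shown for each member. This is because each of the 5 had a window that held a match. The match searched was GAAA, any 2 bases, then GAAA, on either strand, and capitals mark it as read on the gene's own strand, where it appears as its reverse complement. The stretches lie on the plus strand at chr3:142496739-142496808 (Gbp5), chr3:142530253-142530322 (Gbp7), chr3:142559969-142560044 (Gbp3), chr3:142594680-142594749 (Gbp2b) and chr3:142620574-142620643 (Gbp2).
Gbp5: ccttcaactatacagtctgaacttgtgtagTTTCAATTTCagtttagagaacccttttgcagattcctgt
Gbp7: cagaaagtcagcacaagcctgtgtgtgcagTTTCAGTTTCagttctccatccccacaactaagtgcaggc
Gbp3: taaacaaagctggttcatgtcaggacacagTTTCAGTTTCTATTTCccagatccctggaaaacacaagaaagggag
Gbp2b: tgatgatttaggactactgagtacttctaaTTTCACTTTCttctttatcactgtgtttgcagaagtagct
Gbp2: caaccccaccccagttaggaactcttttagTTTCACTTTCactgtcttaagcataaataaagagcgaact
The run in capitals began 45 bases before the start in Gbp3, 53 in Gbp7, 59 in Gbp2, 137 in Gbp2b and 165 in Gbp5. For Gbp5 the whole stretch lies inside the gene span of the deposited table, which begins at chr3:142493978. For Gbp2 the run in capitals, at chr3:142620604-142620613, also lies inside the gene span, which begins at chr3:142620602. The RefSeq start used for Gbp5 and for Gbp2 is thus not the start of the counted gene. Gbp3 had 2 overlapping matches, and a later RefSeq start of Gbp3 had none in its window. Such a match stood in the windows of 3.99% of the 27025 genes with a window. A gamma-activated site, TTC, any 3 bases, then GAA, read the same on both strands, was found in the windows of Gbp5 and Gbp7, 2 in each, and in those of 9.55% of all genes. These are matches of letters, and binding was not measured here. Gbp4, Gbp6, Gbp9 and Gbp10 had no window.

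All 9 tested Gbp entries were lower after co-culture and none was higher (edgeR quasi-likelihood test, Benjamini-Hochberg adjusted p below 0.05 over 12666 genes). Across all genes tested, 16.1% were called lower and 17.4% higher. The median log2 fold change of the 9 entries was -1.19, against 0.01 over all genes tested. The estimated fall was at least 2-fold, in a gene called lower, for 7 of the 9 entries and for 1.58% of all genes. The call is against no change, and a fall beyond 2-fold was not itself tested. For each of the 9, every co-culture library lay below every untreated library, which held for 11.1% of all genes. In bulk RNA, fewer expressing cells and less RNA per cell cannot be told apart.

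**Figure D1:**
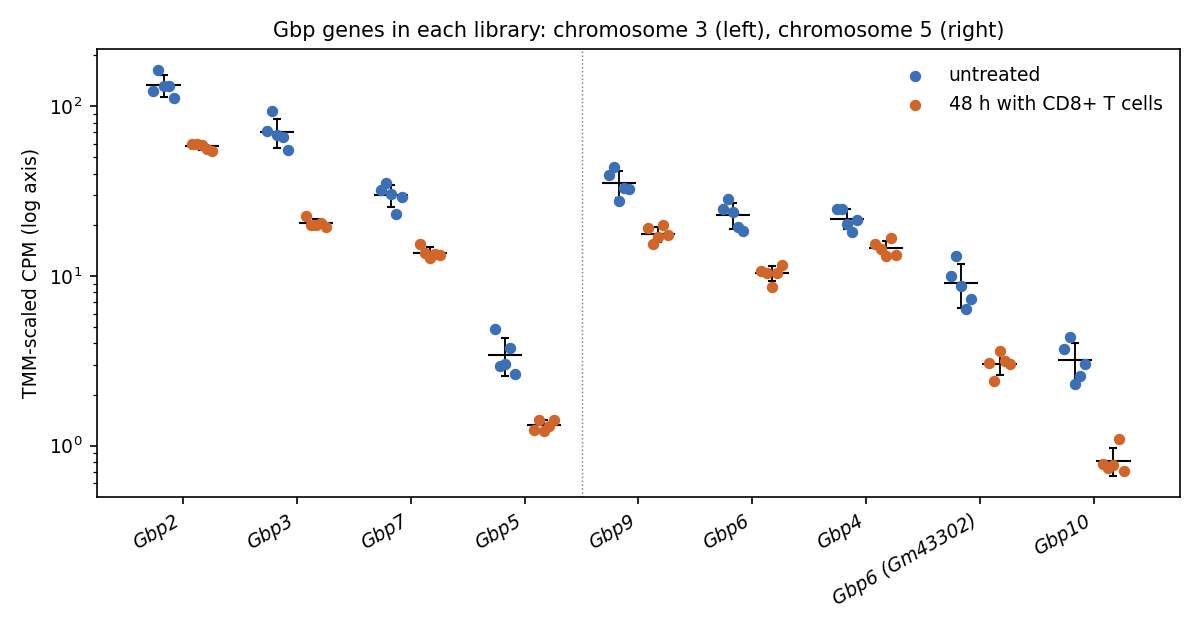
TMM-scaled CPM (log axis) of the 9 tested Gbp entries in each of the 5 untreated (blue) and 5 co-culture (orange) libraries; bars give the mean and SD. The groups are separate for every gene, and untreated Gbp2 at 132 CPM and co-culture Gbp10 at 0.818 CPM mark the ends of the range of means.

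The chromosome 3 cluster held the most abundant members. Gbp2, a lipid-anchored member that coats Toxoplasma vacuoles in mouse cells, spans chr3:142620602-142638008 on the plus strand (ENSMUSG00000028270; positions here and below are those of the deposited table, mm10). Its CPM was 123, 164, 131, 132 and 111 in untreated replicates 1 to 5, and 60.0, 60.0, 59.2, 55.9 and 54.0 in co-culture. The lowest untreated library lay well above the highest co-culture one. The mean went from 132 ± 19.6 to 57.8 ± 2.71 CPM (SD, n = 5), 43.7% of the untreated level, and the log2 fold change was -1.19 ± 0.0863 (SE; adjusted p = 3.95e-07). In FPKM it was 46.2 ± 7.01 untreated and 20.7 ± 0.831 in co-culture, rank 1111 and rank 2497 among the tested genes.

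Gbp3, also recruited to Toxoplasma vacuoles in mouse cells, spans chr3:142560026-142573209 on the plus strand (ENSMUSG00000028268). It measured 71.3, 93.1, 67.5, 65.4 and 55.1 CPM in untreated libraries and 22.5, 19.9, 20.1, 20.4 and 19.3 CPM in co-culture. All co-culture values sat within a narrow band below the untreated ones. The mean fell from 70.5 ± 14.0 to 20.4 ± 1.21 CPM (SD, n = 5), 29.0% of untreated, and the log2 fold change was -1.79 ± 0.117 (SE; adjusted p = 1.63e-07).

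Gbp7, linked in mouse macrophages to the delivery of oxidase to microbial vacuoles, lies at chr3:142530342-142550149 (ENSMUSG00000040253). Its values were 31.9, 35.3, 30.2, 23.2 and 29.0 CPM untreated and 15.5, 13.6, 12.7, 13.4 and 13.2 CPM in co-culture. Untreated replicate 4 was the lowest of its group and still above all co-cultures. On average the level went from 29.9 ± 4.43 to 13.7 ± 1.05 CPM (SD, n = 5), and the log2 fold change was -1.13 ± 0.104 (SE; adjusted p = 3.64e-06).

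Gbp5, reported to promote Nlrp3 inflammasome assembly in mouse macrophages, lies at chr3:142493978-142522344 (ENSMUSG00000105504) and had the lowest FPKM of the tested members. It measured 4.85, 2.96, 3.02, 3.74 and 2.63 CPM untreated and 1.23, 1.41, 1.23, 1.30 and 1.43 CPM in co-culture. Untreated replicate 1 was the highest, and the groups did not overlap. The group mean went from 3.44 ± 0.887 to 1.32 ± 0.0947 CPM (SD, n = 5), and the log2 fold change was -1.38 ± 0.192 (SE; adjusted p = 0.000116). Gbp2b, whose coding sequence is 82.5% identical to that of Gbp2, lies between Gbp3 and Gbp2 at chr3:142594847-142619179 (ENSMUSG00000040264). It had 0 counts in all 10 libraries, so any level was below 0.0388 CPM over the untreated and 0.0405 CPM over the co-culture libraries, the equivalent of 3 counts in each summed group (counting error only). The sequence shown for its start therefore stands beside a gene that was not detected at this depth.

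The chromosome 5 members are all on the minus strand. Gbp9, recruited to Toxoplasma vacuoles in mouse cells, spans chr5:105077630-105139539 (ENSMUSG00000029298). Its CPM was 39.4, 44.0, 27.7, 33.0 and 32.3 untreated and 19.1, 15.4, 16.9, 19.8 and 17.3 in co-culture. The groups were separate, with untreated replicate 3 nearest to the co-culture libraries. The mean went from 35.3 ± 6.40 to 17.7 ± 1.78 CPM (SD, n = 5), 50.2% of untreated, and the log2 fold change was -0.99 ± 0.119 (SE; adjusted p = 3.47e-05).

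Gbp4, reported in mouse cells to restrain Irf7, an interferon regulatory factor, fell least of the tested entries by edgeR. It spans chr5:105115767-105139586 (ENSMUSG00000079363) and measured 24.6, 24.7, 20.2, 18.0 and 21.3 CPM untreated and 15.4, 14.4, 13.2, 16.8 and 13.2 CPM in co-culture. Untreated replicate 4 and co-culture replicate 4 came closest to each other, without overlap. Its mean went from 21.8 ± 2.89 to 14.6 ± 1.53 CPM (SD, n = 5), 67.1% of untreated, and the log2 fold change was -0.58 ± 0.103 (SE; adjusted p = 0.000812). The interval of 1.96 SE around this change, -0.78 to -0.37, lay apart from those of Gbp2, at -1.36 to -1.02, and Gbp3, at -2.02 to -1.56; the differences in change between genes were not tested.

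Gbp6, another member recruited to Toxoplasma vacuoles in mouse cells, was listed at chr5:105270702-105293698 (ENSMUSG00000104713). This entry measured 24.7, 28.4, 23.7, 19.3 and 18.3 CPM untreated and 10.7, 10.4, 8.66, 10.4 and 11.5 CPM in co-culture. Untreated replicates 4 and 5 were the lowest of their group and above all co-cultures. The group mean went from 22.9 ± 4.11 to 10.3 ± 1.05 CPM (SD, n = 5), and the log2 fold change was -1.14 ± 0.122 (SE; adjusted p = 1.29e-05).

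The second entry with the symbol Gbp6 (ENSMUSG00000079362, named Gm43302 in GENCODE M21) spans chr5:105214907-105293695, which takes in both Gbp10 and Gbp6. It measured 10.0, 13.0, 8.78, 6.37 and 7.30 CPM untreated and 3.05, 2.39, 3.60, 3.15 and 3.05 CPM in co-culture. No co-culture library came near the lowest untreated one. The log2 fold change of Gm43302 was -1.58 ± 0.191 (SE; adjusted p = 3.76e-05), from 9.10 ± 2.61 to 3.05 ± 0.432 CPM (SD, n = 5).

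Gbp10 had the lowest edgeR fold change of the family (on log2 FPKM scales with a pseudocount, Gbp3 had) and lies at chr5:105215699-105239533 (ENSMUSG00000105096). It measured 3.73, 4.37, 2.31, 2.56 and 3.01 CPM untreated and 0.779, 0.736, 0.766, 1.10 and 0.713 CPM in co-culture. Co-culture replicate 4 stood above the other co-cultures and below every untreated library. The mean went from 3.20 ± 0.851 to 0.818 ± 0.157 CPM (SD, n = 5), 25.8% of untreated, and the log2 fold change was -1.95 ± 0.227 (SE; adjusted p = 2.70e-05). Ranked from the most negative of the 12666 log2 fold changes, Gbp10 stood at 38, Gbp3 at 48 and Gm43302 at 67, while Gbp4 stood at 648.

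The last 3 genes share most of their sequence, so the split of reads among them is uncertain. The coding sequence of Gbp6 matched that of Gm43302 at 99.9% of positions and that of Gbp10 at 98.4%. Of the 75-base stretches in the GENCODE transcripts, 99.4% of those of Gm43302, 77.8% of those of Gbp10 and 67.3% of those of Gbp6 also occur in another gene, against 0.578% for Gbp5 and 11.3% for Gbp7. Summed into 1 entry, Gbp6, Gm43302 and Gbp10 measured 38.5, 45.8, 34.8, 28.3 and 28.7 CPM untreated and 14.5, 13.5, 13.0, 14.6 and 15.3 CPM in co-culture. The groups of this sum did not overlap, and its log2 fold change was -1.31 ± 0.125 (SE; adjusted p = 4.87e-06), a value unaffected by how the counted reads were split among the 3. Gbp9, Gbp4 and Gbp8 overlap on the same strand, so reads in their common part could have gone to any of them.

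**Figure D2:**
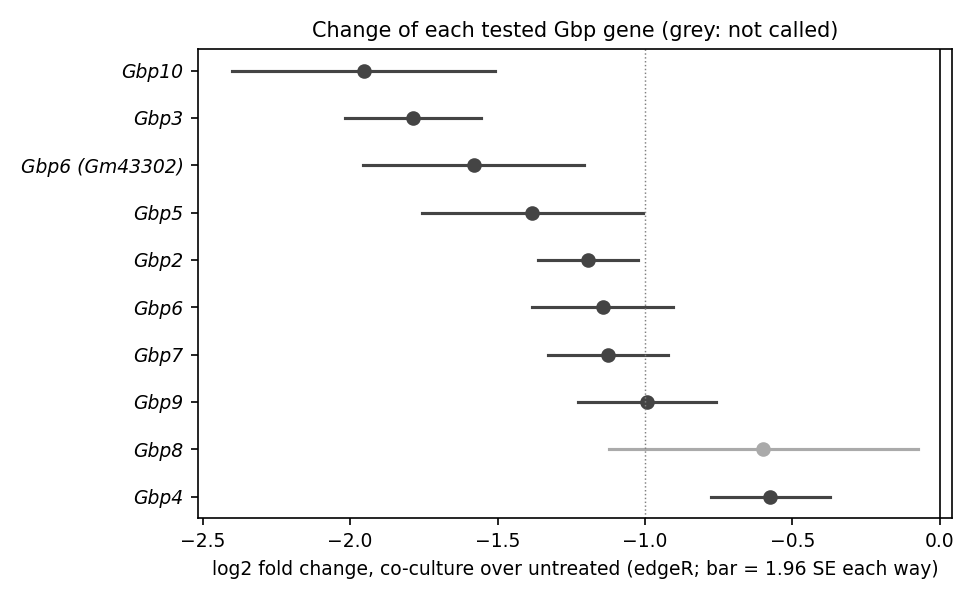
Log2 fold change (co-culture over untreated) from edgeR for each tested Gbp gene, with bars of 1.96 SE on each side and a dotted line at a 2-fold fall. The 9 called entries run from -1.95 for Gbp10 to -0.58 for Gbp4; Gbp8, in grey, was not called.

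The family genes outside the 9 names had low counts. Gbp8, at chr5:105014150-105139540, measured 1.37, 1.83, 1.19, 1.19 and 0.828 CPM untreated and 1.17, 0.613, 0.843, 1.03 and 0.583 CPM in co-culture. Its groups overlapped, and the log2 fold change of -0.60 (SE 0.267) had an edgeR adjusted p of 0.103. Gbp11 had 1, 2, 6, 4 and 3 counts in the untreated libraries and 3, 0, 0, 0 and 0 in co-culture, too few to be tested, and the pseudogene Gbp2-ps had none.

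**Figure D3:**
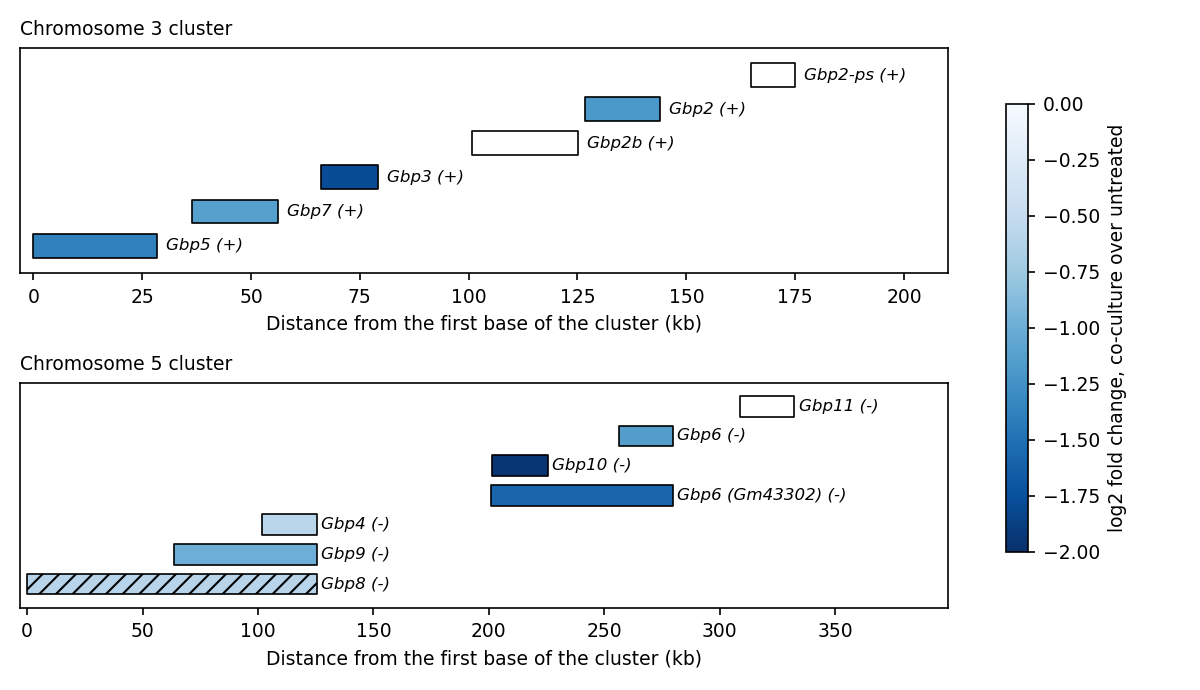
Gbp genes of both clusters by distance (kb) from the first base of each cluster, coloured by log2 fold change, with white for untested genes, hatching for a gene not called and the strand in brackets. The 9 called entries lie in both clusters, Gbp3 at -1.79 and Gbp10 at -1.95 being the darkest and Gbp4 at -0.58 the lightest of them.

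Members of both clusters fell. The 4 tested genes on chromosome 3 had a median log2 fold change of -1.29 and the 5 entries on chromosome 5 a median of -1.14, Gbp8 not included. The nearest tested protein-coding genes outside the family moved less. Pdlim5, a cytoskeletal adaptor 98.3 kb from the chromosome 3 cluster, went from 125 ± 9.97 to 95.1 ± 4.89 CPM (edgeR log2 fold change -0.39 ± 0.0599 SE, adjusted p = 0.000267), a smaller fall than that of any Gbp entry called. Ccbl2, 32.0 kb from the other end, was at 0.08 (adjusted p = 0.639). Beside the chromosome 5 cluster, Lrrc8b was at -0.17 (adjusted p = 0.0879) and Zfp951 at 0.10 (adjusted p = 0.696).

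By the deposited FPKM, Gbp2 made up most of the Gbp transcripts in both conditions. The summed FPKM of the members was 74.1 ± 11.6 (62.2 to 93.2) in untreated and 32.0 ± 1.20 (30.5 to 33.8) in co-cultured libraries (SD, n = 5). Gbp2 supplied 62.5 ± 2.33% of it untreated and 64.7 ± 1.68% in co-culture, with overlapping ranges. The share of Gbp3 went from 15.4 ± 0.788% (14.3 to 16.4) to 10.7 ± 0.323% (10.3 to 11.2), and that of Gbp4 from 3.29 ± 0.443% (2.85 to 3.78) to 5.19 ± 0.489% (4.69 to 5.99). For these 2 genes the groups did not overlap, in opposite directions. The ratio of Gbp2 to Gbp3 in FPKM was accordingly 4.06 ± 0.296 (3.71 to 4.33) untreated and 6.08 ± 0.315 (5.72 to 6.47) in co-culture. All other shares overlapped between groups. Gbp7 held 6.14% untreated and 6.62% in co-culture, Gbp9 4.96% and 5.89%, and Gbp10 1.01% and 0.612%.

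**Figure D4:**
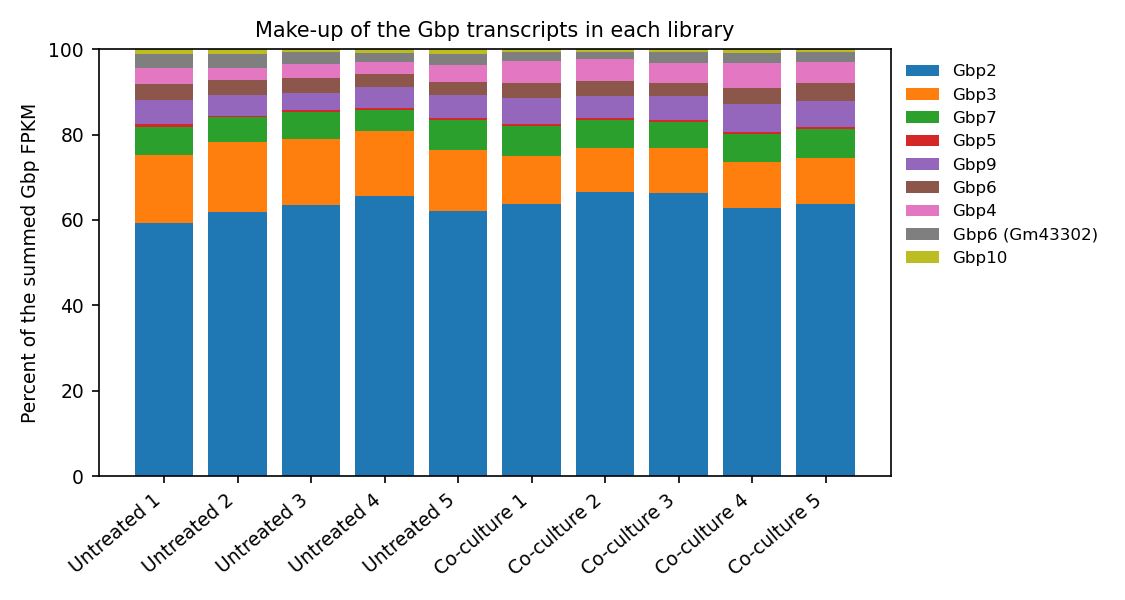
Percent of the summed Gbp FPKM held by each gene in each of the 10 libraries. Gbp2 holds 59.2 to 66.6% throughout, the Gbp3 band is thinner and the Gbp4 band thicker in the 5 co-culture libraries.

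The order of the untreated means in FPKM was Gbp2, Gbp3 (11.5 ± 2.36), Gbp7 (4.53 ± 0.705), Gbp9 (3.67 ± 0.693), Gbp6 (2.55 ± 0.478), Gbp4 (2.42 ± 0.344), Gm43302 (2.09 ± 0.616), Gbp10 (0.748 ± 0.205) and Gbp5 (0.341 ± 0.0901). Neighbours from Gbp7 to Gm43302 overlapped in their ranges over the 5 libraries, so their order is not fixed by these data. In co-culture Gbp4, at 1.66 ± 0.181 FPKM, stood above Gbp6, at 1.18 ± 0.125, and these ranges did not overlap. The lengths behind the deposited FPKM run from 2830 bases for Gbp2 to 9993 for Gbp5, whereas the coding lengths run only from 1770 to 2175 bases. Whole-gene CPM was also divided by the coding length alone, which raises genes with long untranslated parts. Per kilobase of coding sequence in this sense, untreated Gbp2 was at 74.7 CPM and Gbp3 at 37.8. Gbp2 still led but by less, with 41.7% of the Gbp total untreated and 42.8% in co-culture. Gbp9, at 19.0, stood above Gbp7, at 15.6.

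Untreated libraries varied more than co-cultured ones. The coefficient of variation was 13.3 to 28.7% over the 9 entries untreated and 4.68 to 19.2% in co-culture, and it was larger untreated for all 9 entries, against 55.2% of all tested genes. Untreated replicate 2 was the highest library for 8 of the 9 entries, the exception being Gbp5, which was highest in replicate 1. Without untreated replicate 2, Gbp2 was at -1.11, Gbp3 at -1.67 and Gbp4 at -0.53 on the log2 scale, and all 9 entries were still called lower.

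Genes were also ranked by how near their profile over the 10 libraries lay to the mean profile of the Gbp entries. Likeness was the root mean square difference of centred log2 CPM, over 11321 candidate genes. The 6 nearest were Ifi204 (0.0785), a sensor of DNA, Mnda (0.0877), of the same family, Herc6 (0.0889), a ligase that attaches Isg15 in mice, Irgm1 (0.0937), Irgm2 (0.111) and Ifih1 (0.118), a sensor of double-stranded RNA. The Gbp entries themselves lay between 0.109, for Gbp7, and 0.323, for Gbp4, from their own mean. Ifi204 went from 147 ± 23.0 to 63.3 ± 5.01 CPM, Mnda from 80.6 ± 12.6 to 32.8 ± 1.18 CPM and Herc6 from 58.5 ± 8.55 to 24.8 ± 2.30 CPM (SD, n = 5). Since the 6 were picked for a profile set largely by the difference between groups, their place in this ranking is no test of that difference. Irgm1 and Irgm2 also belong to the list of immunity-related GTPases below, where the test of Irgm1 is given.

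Immunity-related GTPases (Irg), smaller interferon-induced GTPases that are loaded onto vacuoles together with Gbp proteins in mice, fell alongside them. Of 12 listed, 8 were tested, 7 were lower and none higher, with a median log2 fold change of -1.38. Over all genes tested, 16.1% were lower and 17.4% higher. Irgm1, a regulator that keeps other Irg proteins off host membranes, went from 248 ± 39.8 to 100.4 ± 4.81 CPM (SD, n = 5; edgeR log2 fold change -1.31 ± 0.0891 SE, adjusted p = 2.41e-07). Irgm2 went from 122 ± 14.5 to 52.4 ± 2.88 CPM and Igtp, a related regulator, from 119 ± 18.5 to 48.5 ± 1.52 CPM. The entry that missed the threshold was 9930111J21Rik2, at -0.51 (adjusted p = 0.151). The other large GTPases divided by gene: of 10 listed, 5 were tested, 3 were lower and 1 higher, beside the same shares. The antiviral GTPases Mx1, from 11.4 ± 2.46 to 2.78 ± 0.387 CPM (log2 fold change -2.03), and Mx2, from 8.86 ± 1.59 to 2.21 ± 0.182 CPM (-2.00), were lower. The atlastins, which fuse endoplasmic reticulum membranes and are relatives of Gbp proteins, were near their untreated level, with Atl3 at -0.22 (adjusted p = 0.0157), Atl1 at 0.10 (adjusted p = 0.675) and Atl2 at 0.25 (adjusted p = 0.0327). The calls of Atl3 and Atl2 held in 14 and 11 of 18 alternatives, and 6 of the 7 in which Atl2 lost its call left out 1 library: co-culture replicate 1, 4 or 5 or untreated replicate 3, 4 or 5.

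**Figure D5:**
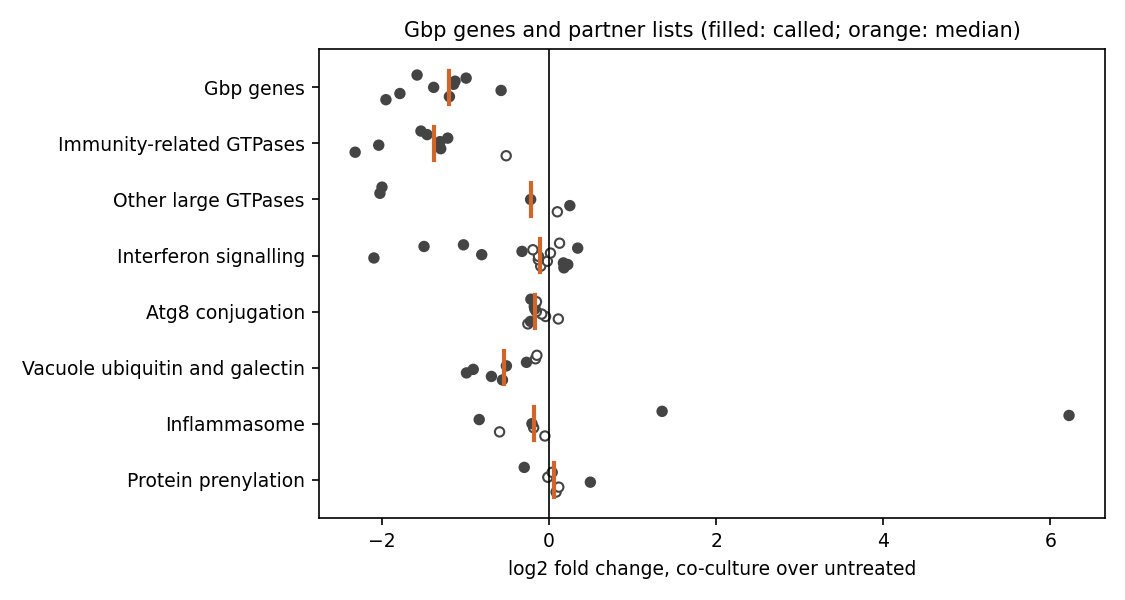
Log2 fold change (co-culture over untreated) of each tested gene in the Gbp family and in 7 lists of its partners and regulators; filled circles were called, open circles were not, and the orange bar is the list's median. The Gbp genes (median -1.19) and the Irg genes (median -1.38) lie to the left, and the prenylation genes (median 0.06) around 0.

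The listed genes of interferon signalling, feedback inhibitors among them, did not all move one way. Of 16 listed and tested, 5 were lower and 4 higher, with a median of -0.11, beside 16.1% lower and 17.4% higher over all genes. With so few genes, this mix is not read as a trait of the list. Irf7, the factor that amplifies type I interferon, went from 145 ± 17.9 to 33.9 ± 2.63 CPM (SD, n = 5; edgeR log2 fold change -2.10 ± 0.0864 SE, adjusted p = 4.39e-09). Among the other genes called lower, chosen after their values were seen, were Stat2 (-1.03) and Irf9 (-0.81), which act together on response elements, and the kinase Jak2 (-0.32). Those called higher were the feedback inhibitor Socs3 (0.34) and the receptor chains Ifngr1 (0.22), Ifnar1 (0.18) and Ifngr2 (0.17). Irf1, which interferon gamma induces and which is needed for full Gbp expression in mouse cells, was at 74.5 ± 4.67 CPM untreated and 73.4 ± 6.07 CPM in co-culture (log2 fold change -0.02, SE 0.0659, adjusted p = 0.836). Its libraries overlapped between groups. Only the RNA of Irf1 was measured, and any part of Irf1 in the Gbp levels was not tested.

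Genes that bring Gbp and Irg proteins to vacuoles, or act there after them, were lower in part. In the Atg8 conjugation machinery, which is needed in mouse cells to deliver these GTPases to vacuoles, 5 of 11 tested genes were lower. Their falls were small and none of the 11 was higher, beside 16.1% lower and 17.4% higher over all genes. Gabarap went from 545 ± 5.08 to 484 ± 27.8 CPM (log2 fold change -0.17, adjusted p = 0.00911) and Gabarapl2 from 105 ± 1.93 to 93.6 ± 4.42 CPM (-0.16, adjusted p = 0.0114). Without co-culture replicate 5, 3 of the 11 were called. Among ubiquitin and galectin genes of damaged vacuoles, 6 of 8 were lower and none higher, with a median of -0.54, beside the same shares. Lgals9, a galectin that binds exposed vacuole sugars, went from 424 ± 34.1 to 214 ± 11.2 CPM (-0.99, SE 0.0589, adjusted p = 6.47e-08), and Rnf213, a ubiquitin ligase that coats intracellular microbes, from 2537 ± 192 to 1352 ± 77.1 CPM (-0.91, SE 0.0589, adjusted p = 1.47e-07).

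Among the inflammasome genes that Gbp proteins feed into, calls went both ways. Of 8 listed, 7 were tested, 2 were lower and 2 higher. With so few genes this is not read as a trait of the list, since 16.1% of all genes tested were lower and 17.4% higher. The cytokine gene Il1b went from 0.104 ± 0.0528 to 8.43 ± 0.425 CPM (edgeR log2 fold change 6.22 ± 0.199 SE, adjusted p = 4.60e-10), and the sensor Nlrp3, with which Gbp5 is linked, was also higher (1.35, adjusted p = 0.000271). Il18 went from 15.5 ± 0.997 to 8.69 ± 0.761 CPM (-0.84, adjusted p = 6.76e-06), and the pore-forming Gsdmd was lower by a small amount (-0.21, adjusted p = 0.00107). Casp4, the caspase that senses bacterial lipopolysaccharide, was at 42.8 ± 4.83 CPM untreated and 37.6 ± 1.31 CPM in co-culture (-0.19, adjusted p = 0.0812). Without untreated replicate 5, 4 of the 7 were called lower, Casp4 among them. Il1b and Nlrp3 are also typical of macrophages. Of the macrophage markers, 5 of 7 tested were higher in co-culture, beside 17.4% of all genes. Lyz2 went from 0.930 ± 0.249 to 18.2 ± 2.14 CPM and Adgre1 from 0.162 ± 0.102 to 3.66 ± 0.482 CPM. The part of such cells in these results was not tested.

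Protein prenylation attaches the lipid anchor of Gbp2 and Gbp5. Of its 6 genes tested, 1 was called lower and 1 higher, close to the shares over all genes of 16.1% and 17.4%. Icmt, the methyltransferase of the last step, was higher, from 78.9 ± 13.5 to 111 ± 22.1 CPM (edgeR log2 fold change 0.49 ± 0.139 SE, adjusted p = 0.0148), and the protease Zmpste24 lower, from 64.4 ± 8.71 to 52.4 ± 2.68 CPM (-0.30, adjusted p = 0.0152). The transferase subunits Fnta, Fntb and Pggt1b, which add the lipid, missed the threshold at 0.08, 0.12 and -0.02.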

How the data were processed

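The deposited table holds counts and FPKM of 34745 genes in 10 libraries, per the file headers. Per the submitters' processing notes, mm10 was the build and RSEM 1.2.8, HISAT2 2.1.0 and Bowtie2 2.2.5 were used. Roles of these tools, annotation and strand use: not given in the sources used here, so reads of overlapping genes cannot be told apart. Whole numbers make up the deposited counts. The deposited FPKM are these counts over 1 fixed length per gene and the library total: the implied length varied by at most 0.00104% between libraries over the 9379 genes that had 100 counts or more throughout. No value column was left unused.

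Counts were tested with edgeR 4.0.16 in R 4.3.3 (filterByExpr, TMM, two-sided quasi-likelihood F test, Benjamini-Hochberg over 12666 genes, called below 0.05), after a check of the procedure on simulated data. SEs come from the fold change and the F statistic. Alternatives used DESeq2 1.42.0 and limma 3.58.1. Within groups, no pair of libraries agreed within sampling noise (chi-square per degree of freedom 6.67 to 15.1 over 20 pairs), and each counted as 1 replicate.

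The members and the gene lists were chosen with earlier results of these data known. In each list the 2 tested genes with the smallest p were named, with Irf1, Irgm1 and Casp4, the 6 genes nearest in profile and the nearest tested gene on each side of each cluster. Other genes named in the lists, to complete a count or as a marker, were chosen after their values were seen. In GENCODE M21, 98.6% of the identifiers were found and 79.7% at the same position, and it gave coding sequences and shared stretches. Gm12250 of the Irg list was not matched in the table. One gene of the interferon signalling list is counted there but not reported here.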

Additional observations from a re-analysis of the deposited data

Results flagged for a closer look

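In 90 groups of 5 values, single libraries far from the other 4 were sought with Dixon's test, which chance alone meets in about 1 of 20 groups. It marked 7. Among the members these were Gbp10 in co-culture replicate 4, at 1.10 CPM against 0.713 to 0.779 CPM in the other co-cultures, and its share of the summed Gbp FPKM there, at 0.823% against 0.546 to 0.574%. Untreated replicate 2 stood above its group for 3 immunity-related GTPases, with Irgm1 at 318 CPM against 219 to 243, Irgm2 at 147 CPM against 111 to 120.4 and Igtp at 151 CPM against 106 to 118. That library was also the highest untreated one for 8 of the 9 tested Gbp entries. Icmt was at 102 CPM in untreated replicate 4 against 70.1 to 79.1 CPM, and Irf1 at 62.8 CPM in co-culture replicate 5 against 74.8 to 77.3 CPM.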

How the results depend on the processing

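All 162 values of the Gbp entries under the alternatives stayed negative and past the threshold, and 461 of 468 values of the other genes named by rule kept direction and call. Beyond that rule, Atl2 kept its call in 11 of 18 alternatives, Atg12 in 12, Ifngr1 in 13 and Atl3 in 14. Gbp4 ran from -0.64 to -0.36 on the log2 scale (highest adjusted p 0.00458), Gbp3 from -1.87 to -1.49 and Gbp5 from -1.47 to -0.24, the last on log2(FPKM + 1), a scale that understates changes of low genes. Gbp10 ran from -2.08 to -0.54 and Gm43302 from -1.69 to -0.83. In both limma fits Gbp3 and not Gbp10 was the lowest, and with a pseudocount of 1 Gbp5 and not Gbp4 changed least. Over all genes, 2044 lower and 2204 higher became 1744 and 2641 with library totals only, 1746 and 2653 with limma on log2(FPKM + 1), and 1738 and 2641 with a pseudocount of 0.1. With the library total alone, the median of all genes was 0.04 in place of 0.01. Leaving out 1 library gave 1813 to 2093 lower and 1849 to 2128 higher.

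No pairing by replicate number was visible in the values. Deviations of same-numbered libraries correlated at -0.0986 to 0.0507, and 1 of 5 untreated libraries correlated best with its own number. Whether libraries were prepared in pairs cannot be told from this. With a replicate block, 9 Gbp entries were lower, and over all genes 1625 were lower and 1762 higher.

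Leaving out 1 library gave 3 to 6 lower Atg8 conjugation genes, 2 to 4 lower inflammasome genes and 0 to 1 higher genes among other large GTPases, which also had 0 with no filter. The 3 lower genes among these were 2 with library totals only, in both limma fits and with the replicate block. Both limma fits gave 2 higher prenylation genes. Irf1, at -0.02, turned to 0.0116 with library totals only and to 0.00926 and 0.00977 in the limma fits (pseudocounts 1 and 0.1). Leaving out 1 library gave -0.0624 (untreated replicate 1) to 0.0306 (co-culture replicate 5) for Irf1 and -0.00707 (untreated replicate 4) to 0.222 (untreated replicate 1) for Zfp951. The cause was not tested. Casp4 was at -0.24 (adjusted p = 0.0146) without untreated replicate 5.

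After the data were seen, 2 alternatives were added. With Gbp6, Gm43302 and Gbp10 summed, all 7 entries were lower. The other alternative divided whole-gene CPM by coding lengths. With coding lengths, shares of the Gbp total (untreated, then co-culture) were 41.7% and 42.8% for Gbp2, 20.98% and 14.4% for Gbp3, 8.74% and 9.34% for Gbp7, 0.894% and 0.797% for Gbp5, 10.6% and 12.5% for Gbp9, 6.93% and 7.38% for Gbp6 and 6.44% and 10.1% for Gbp4. Counts limit Gbp5, Gbp10 and Gm43302 most, and Gbp2b was not detected.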
